A study of Mus musculus with 4 samples.

Results

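Aminoacyl tRNA synthetases are the enzymes that attach each amino acid to its tRNA. Their transcripts were taken from the transcript table of an RNA-seq experiment on NIH/3T3 cells, an immortalised line of mouse embryonic fibroblasts, by gene symbol alone: a capital letter followed by ars, with or without a final 1 or 2, plus *Farsa*, *Farsb* and *Eprs*. This rule found 61 protein-coding transcripts of 37 genes among the 34200 transcripts of 21945 genes in the table. Of these genes, 17 have a name ending in 2 and encode mitochondrial enzymes (29 transcripts), and the other 20 encode cytosolic enzymes (32 transcripts). No measured value entered this rule, though earlier results of these data were known when the set was chosen. The knockdown (KD) cells were co-transfected with 2 siRNAs against *Setd2*, the gene of the histone methyltransferase that deposits H3K36me3 along transcribed genes. The control cells, labelled wild type (WT), received a Scrambled siRNA that has no target. Both groups were transfected with a lipid reagent, with siRNA at 10 nM for 48 h, and each had 2 libraries of polyadenylated RNA. An siRNA need not reach every cell of a culture alike, so the KD libraries hold the RNA of a mixed population in which *Setd2* was lowered, not deleted.

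Each synthetase pairs 1 amino acid with all the tRNAs that read its codons, and so sets the fidelity of the genetic code at the step before the ribosome. Mammalian cells keep separate sets for the cytosol and for the mitochondrion, both encoded in the nucleus and both translated in the cytosol. A group of the cytosolic enzymes is held together, with scaffold proteins, in the multi-tRNA synthetase complex. The enzymes fall into 2 structural classes, class I and class II, by the fold of the catalytic domain. Promoters of many cytosolic synthetase genes are known targets of ATF4, the transcription factor that responds to shortage of amino acids, often at composite sites that it occupies together with a C/EBP protein.

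The values given here are levels, that is estimated counts scaled to a common library size and averaged on a log scale over the 2 libraries of a group. Both tables summarise the libraries, so the error is given as the standard error (SE) of the log2(fold change) in the deposited table and as the within-group SD, which pools the spread of the 2 KD and the 2 WT libraries on the log2 scale. A transcript is called when the q-value of the likelihood ratio test in Sleuth, adjusted over all transcripts, is under 0.05. From the deposited variances it can also be worked out for most transcripts whether the KD and WT libraries overlapped. Across all transcripts, 7.26% were called higher and 5.21% lower in KD, and the groups did not overlap for 54.8% of them. *Setd2* itself had a level of 923 in KD and 3680 in WT, which is 74.9% lower (log2(fold change) −1.99, SE 0.094, q = 0.0103), and its groups did not overlap. All 9 fibroblast markers examined, such as *Col1a1* and *Vim*, were in the table, with summed levels of 1126360 in KD and 1255260 in WT. Within this sum the collagen genes were lower in KD (*Col1a1* 142638 against 228494, *Col1a2* 215502 against 346235, *Col3a1* 4778 against 9043), and *Fn1* (388093 against 276425) and *Pdgfra* (12758 against 8415) were higher. Their part in the results on synthetases was not tested. The summed levels of the markers of epithelium, leukocytes, endothelium and muscle lay between 57.3 and 409, and *Epcam*, *Krt5*, *Cd3e*, *Myod1* and *Myog* had no tested transcript. These are bulk libraries, in which fewer cells of a type and less RNA per cell cannot be told apart.

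The cytosolic synthetases were mostly higher after *Setd2* knockdown, and the mitochondrial ones moved in both directions. Of the 61 transcripts, 17 were called higher (27.9%), 3 were called lower (4.92%) and 41 were not called. The cytosolic enzymes held 14 of the calls for higher levels and 1 of the calls for lower levels. The mitochondrial enzymes held 3 of the former and 2 of the latter. By gene, 12 of the 20 cytosolic genes had a transcript called higher, 1 had a transcript called lower and 7 had none. Of the 17 mitochondrial genes, 3 had a transcript called higher, 1 had transcripts called lower and 13 had none. Among all protein-coding genes, 14.5% had a transcript called higher and 9.89% a transcript called lower, so the share called higher was 60.0% in the cytosolic set and, near this background, 17.6% in the mitochondrial set. The background rose to 23.8% higher and 12.8% lower among genes with a mean level of at least 1000, where all 20 cytosolic genes lie, and to 37.1% and 10.6% among those with at least 10000. With a limma moderated test in place of the likelihood ratio test, 8 of the 20 calls were lost, those of *Ears2*, *Iars*, *Nars*, *Qars*, *Sars2*, *Tars*, *Yars* and the minor *Cars* transcript, at adjusted p from 0.0501 to 0.0754.

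Cytosolic synthetase mRNAs are abundant, and abundant transcripts were called more often throughout the table. Among protein-coding transcripts with a mean level of at least 1000, 20.7% were called higher and 10.4% lower. Of the cytosolic transcripts above that limit, 14 of 24 were called higher (58.3%) and 1 was called lower. Of the mitochondrial transcripts above it, 1 of 10 was called higher and 1 lower. With the levels of all tested transcripts of each gene added up, the median log2 ratio of KD over WT was 0.34 for the cytosolic genes (quartiles 0.19 and 0.52) and 0.10 for the mitochondrial genes (quartiles −0.16 and 0.33). The same median was 0.020 over all protein-coding genes, 0.092 over those with at least 1000 and 0.19 over those with at least 10000, the range in which 12 of the cytosolic genes lie. The ratio was above 0 in 18 of 20 cytosolic genes and in 10 of 17 mitochondrial genes, against 51.9% of all protein-coding genes, 60.7% of those with at least 1000 and 73.2% of those with at least 10000. By the most abundant transcript of each gene, 11 of the 17 mitochondrial genes were above 0, with *Nars2* added. The difference between the compartments was not tested.

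The spread between libraries was small for most of these transcripts. For the most abundant transcript of each gene, the within-group SD had a median of 0.056 in the cytosolic and 0.060 in the mitochondrial set, and the SE a median of 0.080 and 0.12. The KD and WT libraries did not overlap for 19 of the 20 most abundant cytosolic transcripts, 17 of them higher and 2 lower in KD. They did not overlap for 14 of the 17 mitochondrial ones, 11 higher and 3 lower. Over all protein-coding transcripts with a mean level of at least 1000, which only 10 of the 17 mitochondrial ones reach, the share without overlap was 72.0%. Over those with at least 100 it was 65.3%.

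**Figure D1:**
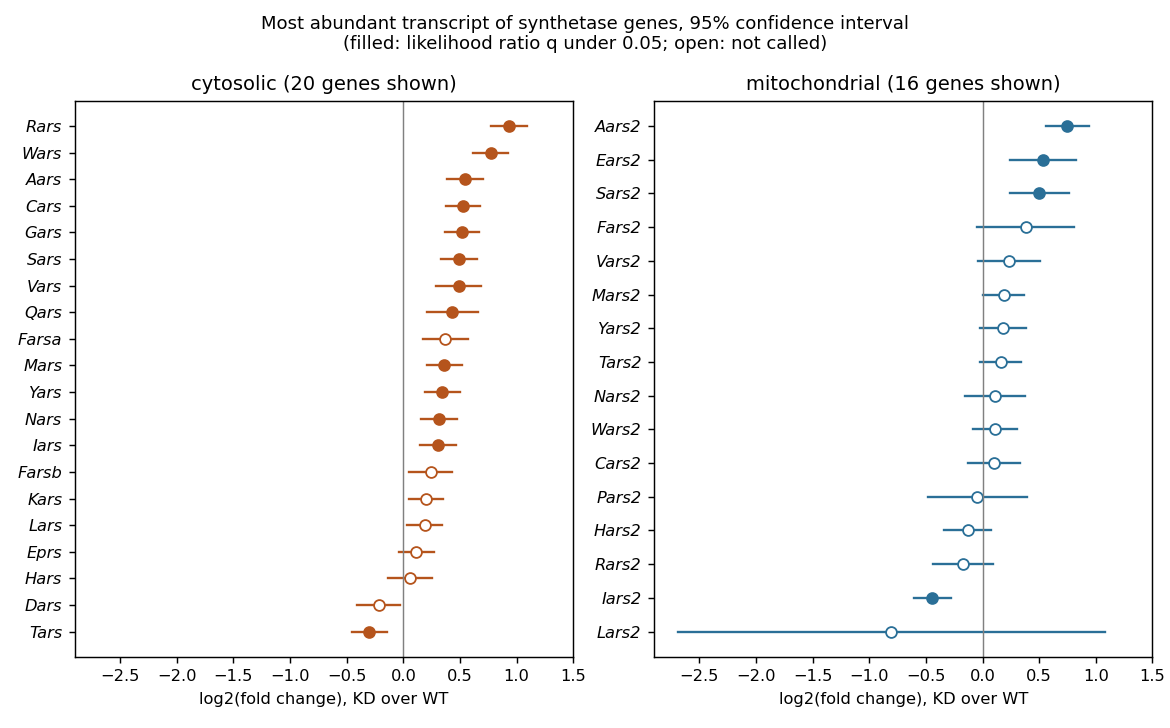
The log2(fold change) of KD over WT on the horizontal axis is given for the most abundant transcript of 20 cytosolic and 16 mitochondrial genes, with points for the estimate, lines for the 95% confidence interval, filled points for called transcripts and open points for the others. Filled points lie above 0 for 12 cytosolic and 3 mitochondrial genes and below 0 for *Tars* and *Iars2*, and the interval of *Lars2*, from −2.69 to 1.08, is the widest.

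Among the enzymes of the multi-tRNA synthetase complex, *Rars* changed most. *Rars*, which encodes the arginyl enzyme, lies on the minus strand at chr11:35808381-35834506 (GRCm38), and its transcript of 15 exons encodes 660 residues. Its level was 16966 in KD and 8888 in WT, a log2(fold change) of 0.93 (SE 0.079, 95% confidence interval 0.78 to 1.09, q = 0.0103). This was the largest called change of all the synthetase transcripts, and its groups did not overlap. Its 95% confidence interval does not overlap that of the most abundant transcript of any other enzyme of the complex. *Rars* was picked here as the largest change of the complex, and the intervals make no allowance for that choice.

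*Qars*, the glutaminyl enzyme, has 2 tested transcripts that hold 62.2% and 37.8% of its level in WT. The more abundant had a level of 6177 in KD and 4580 in WT (log2(fold change) 0.43, SE 0.12, q = 0.0468). The other, which encodes 751 instead of 775 residues, had 3708 and 2781, a nearly equal change of 0.42 (SE 0.15) that did not pass the threshold (q = 0.0794).

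*Mars*, the methionyl enzyme, which charges both the initiator and the elongator tRNA, had a level of 8369 in KD and 6513 in WT for its main transcript (log2(fold change) 0.36, SE 0.078, q = 0.0217). A minor transcript that holds 5.14% of the gene's level in WT had 301 in KD and 353 in WT, with overlapping groups (−0.23, SE 0.51, q = 0.979). *Iars*, the isoleucyl enzyme, had 12326 and 9954 for its main transcript (0.31, SE 0.082, q = 0.0365). Of the 31-base words of this *Iars* transcript, 17.8% also occur in other genes, nearly all of them in the pseudogene *Gm4849*, so its reads could be split between these.

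The other 4 members of the complex had no called transcript. *Kars*, the lysyl enzyme, had a log2(fold change) of 0.20 (SE 0.077, q = 0.0521), *Lars*, the leucyl enzyme, 0.19 (SE 0.078, q = 0.0566) and *Eprs*, whose product joins the glutamyl and prolyl enzymes in 1 chain, 0.11 (SE 0.080, q = 0.0652). The groups of these 3 transcripts did not overlap, each being higher in KD. *Dars*, the aspartyl enzyme, had 6791 in KD and 7900 in WT (−0.22, SE 0.097, q = 0.111), also without overlap. The median log2 ratio of the 8 genes of the complex was 0.25, with 4 called higher. It was 0.45 for the 12 cytosolic genes outside the complex, with 8 called higher and 1 lower, and this difference was not tested. Among all protein-coding genes with a mean level of at least 1000, 23.8% had a transcript called higher and 12.8% one called lower. In the deposited gene table, which combines the transcripts of a gene, 24.0% of all genes had a q-value under 0.05, as did 15 of the 20 cytosolic and 5 of the 17 mitochondrial genes. Of the protein-coding genes with a mean level of at least 1000, which include all 20 cytosolic ones, 3915 of 7869 passed. With at least 10000, 549 of 924 did. *Eprs* (q = 0.0459), *Kars* (0.0367) and *Lars* (0.0389) passed, whereas *Iars* (0.0672) and *Mars* (0.0516) did not.

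*Kars* encodes both a cytosolic and a mitochondrial enzyme through alternative splicing. The 2 transcripts that encode the longer form, of 624 residues instead of 595, made up 14.7% of its level in WT and 13.5% in KD. Their summed level was 1720 in KD and 1666 in WT, a log2 ratio of 0.046, and neither was called.

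Among the cytosolic enzymes outside the complex, *Wars* had the largest called change. *Wars*, the tryptophanyl enzyme, lies at chr12:108860030-108894174 on the minus strand, and its main transcript, with 10 exons, had a level of 7663 in KD and 4485 in WT (log2(fold change) 0.77, SE 0.078, q = 0.0103). The within-group SD was 0.028, a value that rests on 2 libraries a group and lies below the SE. Of its minor transcripts, both without a call, the higher in log2(fold change) had only 73.7 in KD and 23.6 in WT (1.63, SE 1.13, q = 0.290). Among the 17 cytosolic genes with a known transcript length, *Wars* had the lowest level per kilobase in WT, 1608 per kb.

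*Sars*, the seryl enzyme, also charges the tRNA on which selenocysteine is made. Among the 17 cytosolic genes with a known length it had the highest level per kilobase, 10208 per kb in WT and 14540 per kb in KD, where *Hars*, *Lars* and *Nars* could not be ranked. Both of its tested transcripts were called higher. The main one, which encodes 536 residues, had 24220 in KD and 17210 in WT (0.49, SE 0.080, q = 0.0162). The other, which encodes 512 residues, had 5571 and 3516 (0.66, SE 0.082, q = 0.0135), and its share of the gene was 18.7% in KD and 17.0% in WT.

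*Cars*, the cysteinyl enzyme, likewise had both transcripts called higher by nearly the same amount. Its main transcript, with 748 encoded residues, had 8526 in KD and 5919 in WT (0.53, SE 0.078, q = 0.0136). The transcript with 831 encoded residues had 1383 and 955 (0.53, SE 0.14, q = 0.0415).

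*Aars*, the alanyl enzyme, had a level of 30558 in KD and 20950 in WT (0.54, SE 0.081, q = 0.0130). Its 3′ end overlaps *Exosc6* on the same strand, and 22.7% of its 31-base words occur in that gene too, so the part of its level that stems from *Exosc6* cannot be told apart here. *Gars*, the glycyl enzyme of cytosol and mitochondria alike, had 20822 in KD and 14546 in WT (0.52, SE 0.079, q = 0.0141). *Vars*, the valyl enzyme, had 15490 and 11029 (0.49, SE 0.10, q = 0.0281).

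*Yars*, the tyrosyl enzyme, had 15125 in KD and 11908 in WT (0.34, SE 0.077, q = 0.0271), and *Nars*, the asparaginyl enzyme, had 24690 and 19867 (0.31, SE 0.080, q = 0.0412). *Tars*, the threonyl enzyme, went the other way. It lies at chr15:11382301-11399665 on the minus strand, and its level was 11457 in KD and 14095 in WT (−0.30, SE 0.077, q = 0.0290), with a within-group SD of 0.012. *Tars* was the only cytosolic gene called lower.

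The phenylalanyl enzyme is built from the products of *Farsa* and *Farsb*. The main transcript of *Farsa* had a level of 4484 in KD and 3466 in WT (0.37, SE 0.10) and lay just outside the threshold with q = 0.0503. That of *Farsb* had 4271 and 3615 (0.24, SE 0.098, q = 0.0984). *Hars*, the histidyl enzyme, differed least, with 6067 and 5817 and overlapping groups (0.061, SE 0.099, q = 0.198). *Farsa* passed in the gene table (q = 0.0208), *Farsb* and *Hars* did not. The minor transcripts of *Dars*, *Farsa*, *Farsb* and *Iars* and the other one of *Wars* lay between −0.061 and 0.93, with SEs from 0.36 to 2.22 and no call.

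By class, all 10 cytosolic class I genes had a ratio above 0, 8 of them with a transcript called higher, and their median log2 ratio was 0.39. Of the 10 cytosolic class II genes, 8 had a ratio above 0, 4 were called higher and 1, *Tars*, lower, and the median was 0.27. The shares called higher, 80.0% and 40.0%, stand beside 23.8% of all protein-coding genes with at least 1000, and the difference between the classes was not tested.

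The mitochondrial synthetases were less abundant. Their median level per kilobase in WT was 414 per kb, against 3519 per kb for the 17 cytosolic genes with a known length. *Mars2* was the lowest at 186 per kb. *Lars2* was the highest at 42913 per kb, and leaving it out gave a median of 403 per kb.

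**Figure D2:**
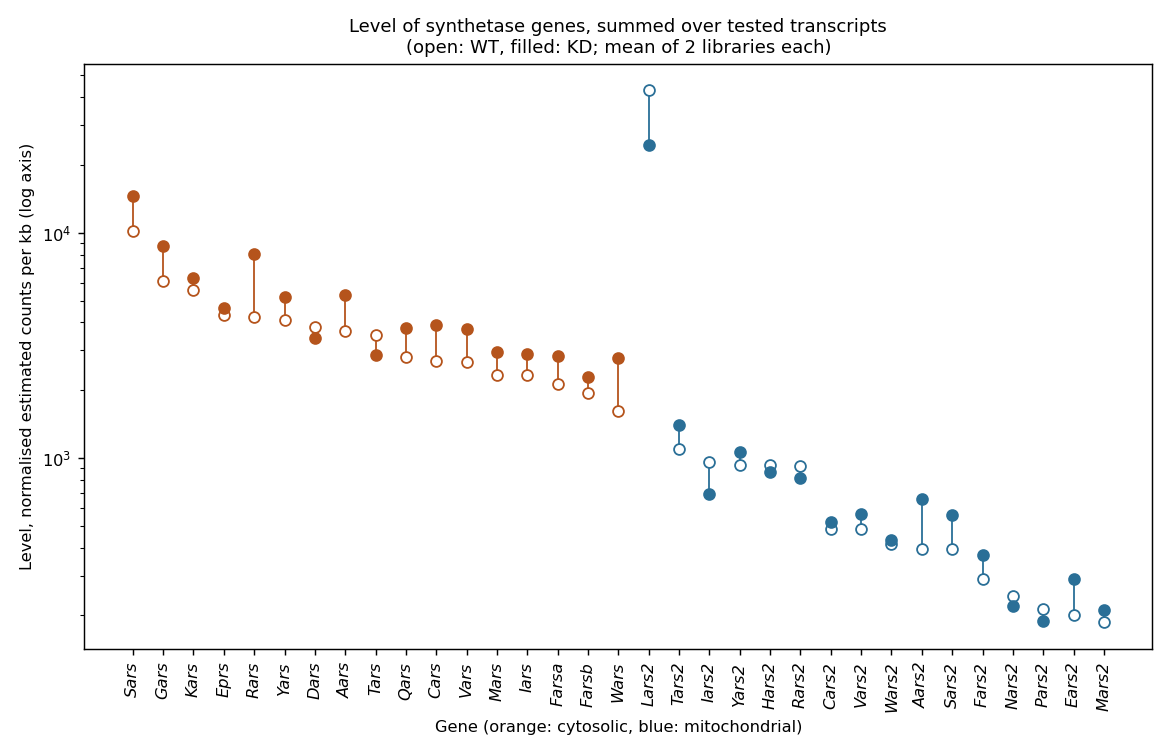
Levels per kilobase of transcript are plotted on a log axis for 17 cytosolic and 16 mitochondrial genes with a known length, with open points for WT and filled points for KD. All cytosolic genes lie between 1608 and 10208 per kb in WT, above every mitochondrial gene shown but *Lars2*, which stands at 42913 per kb.

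*Aars2*, the mitochondrial alanyl enzyme at chr17:45506841-45520843 on the plus strand, changed most among those called. Its level was 2211 in KD and 1315 in WT (0.75, SE 0.097, q = 0.0120). *Ears2*, the glutamyl enzyme, which in mitochondria also loads glutamate onto the tRNA for glutamine, had 593 and 409 (0.53, SE 0.15, q = 0.0359). *Sars2*, the seryl enzyme, had 1039 and 734 (0.50, SE 0.13, q = 0.0469), close to the threshold. The groups did not overlap in any of these 3. When effects were centred on transcripts of like GC content, *Aars2* had a log2(fold change) of 0.57 and passed a Wald test (adjusted p = 1.5e-07). *Ears2* then had 0.37 and *Sars2* 0.32, and neither passed this test (adjusted p = 0.0762 and 0.0935). Under this centring the median was 0.053 over the mitochondrial genes and 0.31 over the 17 cytosolic genes with a GC value.

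*Iars2*, the isoleucyl enzyme, was the only mitochondrial gene with transcripts called lower. Its main transcript of 23 exons at chr1:185284726-185329396 on the minus strand encodes 1012 residues and had a level of 2803 in KD and 3811 in WT (−0.44, SE 0.085, q = 0.0170), with a within-group SD of 0.011. The transcript with 733 encoded residues had 383 and 602 (−0.65, SE 0.18, q = 0.0371). A minor one with 560 encoded residues had 99.9 and 111, with overlapping groups.

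*Lars2*, the leucyl enzyme at chr9:123366927-123462664 on the plus strand, had the largest fall of all the genes and no call. Its level was 95572 in KD and 167102 in WT, a log2(fold change) of −0.81 with an SE of 0.96 (q = 0.601). The within-group SD of 0.96 exceeded the difference, and the groups overlapped. In WT its level per kilobase was 39.0 times that of *Tars2*, the next mitochondrial gene. *Lars2* shares 26 words of 31 bases with *AA474408*, an unclassified transcript that differed in the same way, with 30713 in KD and 52938 in WT (−0.79, within-group SD 0.97, q = 0.621). *Lars2* also shares 22 words with *Gm15564*, an antisense transcript that differed little, with 39.6 in KD and 42.5 in WT (−0.10, SE 0.77). The part of such shared words in the level of *Lars2* was not tested. Without *Lars2* the median log2 ratio of the mitochondrial genes was 0.14.

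*Tars2*, the threonyl enzyme, differed between its transcripts. The main one, with 723 encoded residues, had 2529 in KD and 2264 in WT (0.16, SE 0.091, q = 0.0929). A shorter one, with 16 exons and 642 encoded residues, had 479 and 138, a log2(fold change) of 1.79 (SE 0.51) without overlap between the groups, and missed the threshold with q = 0.0525. Its share of the gene was 5.12% in WT and 14.1% in KD. In the gene table *Tars2* passed (q = 0.0107). The main transcript of *Nars2*, the asparaginyl enzyme, had 818 in KD and 758 in WT, without overlap (0.11, SE 0.13, q = 0.147). A rare *Nars2* transcript with 391 encoded residues had a level of 4.34 in KD and 78.1 in WT (−4.02, SE 3.28, q = 0.361). The within-group SD of this transcript was 3.28, and whether its groups overlapped could not be decided. The largest value above 0 was likewise that of a rare transcript, the *Tars2* transcript with 697 encoded residues, at 22.8 and 3.86 with overlapping groups (2.42, SE 3.17, q = 0.668).

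The other mitochondrial genes described here had gene log2 ratios between −0.18 (*Rars2*) and 0.38 (*Fars2*) and no called transcript. *Hars2*, *Pars2* and *Rars2* were below 0. *Cars2*, *Fars2*, *Mars2*, *Vars2*, *Wars2* and *Yars2* were above 0, with *Mars2* the nearest to the threshold (0.19, SE 0.090, q = 0.0725). The minor transcripts of these genes and of *Tars2* not given above lay between −0.35 (*Wars2*) and 0.43 (*Fars2*).

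Enzymes for the same amino acid could be set side by side in 18 pairs, in which *Eprs* and *Fars2* each stand in 2. In 13 pairs the cytosolic gene had the higher log2 ratio, with a median difference of 0.17. In 10 pairs both genes were above 0, among them alanine (*Aars* 0.54, *Aars2* 0.75) and serine (*Sars* 0.52, *Sars2* 0.50), in which both had called transcripts. In 7 pairs the signs differed. Among them was asparagine, where *Nars* had 0.31 and *Nars2* −0.023, with the main *Nars2* transcript at 0.11. For arginine, *Rars* had 0.93 and *Rars2* −0.18, where *Rars2* was not called. For isoleucine, *Iars* had 0.32 and *Iars2* −0.46, and both genes had transcripts called, in opposite directions. Threonine was the only pair with the cytosolic gene below 0 and the mitochondrial gene above it (*Tars* −0.30, *Tars2* 0.33).

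**Figure D3:**
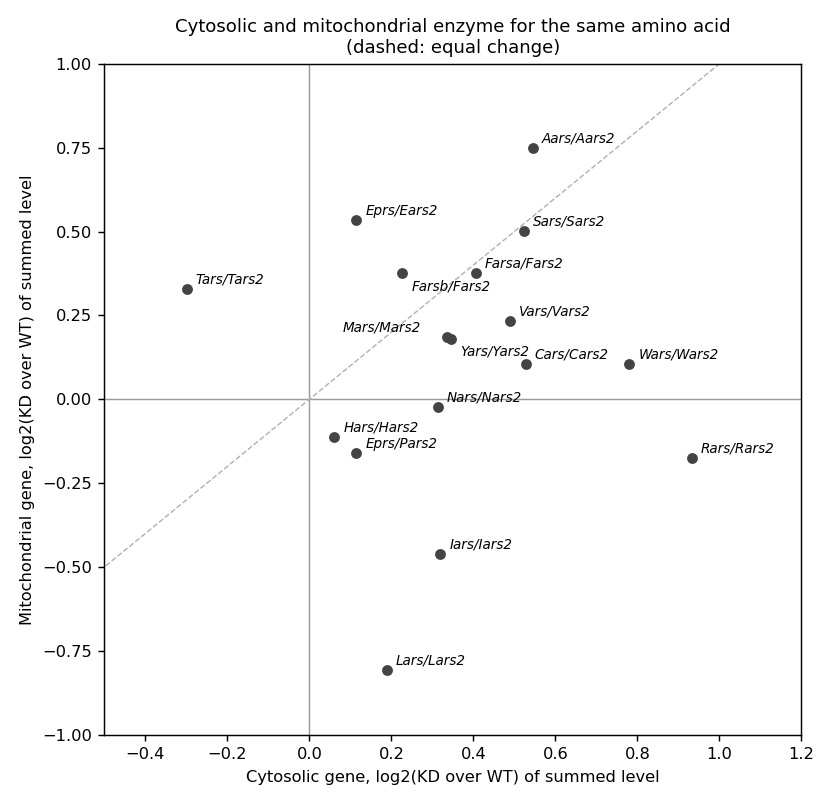
Each of 17 points is a pair of enzymes for the same amino acid, with the log2 ratio (KD over WT) of the summed level of the cytosolic gene on the horizontal axis and that of the mitochondrial gene on the vertical axis. The 13 points below the dashed line of equal change include *Rars* at the far right (0.93 against −0.18) and *Iars* (0.32 against −0.46), and *Tars* is the only point with a negative cytosolic and a positive mitochondrial value.

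The promoter sequences in RefSeq (GRCm38.p6, from 250 bases before to 50 after the annotated start) were searched on both strands for TGATGNAA, the core of the composite site bound by ATF4 with C/EBP proteins. Of the 37 genes, 27 had a sequence here. The motif was found in 5 of 13 cytosolic genes (*Aars*, *Gars*, *Iars*, *Tars* and *Yars*), in 0 of 14 mitochondrial genes and in 1219 of all 27025 genes (4.51%). A match of each of these 5 genes is shown. All 5 were called, 4 higher and 1 lower. Of all 20 cytosolic genes, 12 were called higher and 1 lower. Among protein-coding genes with a mean level of at least 1000, 23.8% were called higher and 12.8% lower. A link between the motif and the calls was not tested. The capitals mark the motif, or its reverse complement TTNCATCA, in 30 bases of the strand that is transcribed into the mRNA sequence.
Aars, chr8:111033840-111033869, plus strand: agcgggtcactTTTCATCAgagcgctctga
Gars, chr6:55037960-55037989, plus strand: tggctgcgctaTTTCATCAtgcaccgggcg
Iars, chr13:49682126-49682155, plus strand: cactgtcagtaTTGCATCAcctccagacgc
Tars, chr15:11399655-11399684, minus strand: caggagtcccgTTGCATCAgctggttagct
Yars, chr4:129189895-129189924, plus strand: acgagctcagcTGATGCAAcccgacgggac

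The first capital lies 30 bases before the start in *Gars* and 15 bases before it in *Tars*. It lies 9 bases after the start in the *Aars* match shown, 7 in *Iars* and 3 in *Yars*. *Aars* has another match, not shown, with the same capitals as *Iars* and *Tars*, which begins 112 bases before the start. These starts are those annotated in RefSeq. The tested transcripts of *Aars* and *Yars* begin elsewhere, at chr8:111033902 and chr4:129189760. The median log2 ratio was 0.35 for the 5 cytosolic genes with a match. For the 8 without it was 0.28, with 3 called higher and 5 not called. The remaining cytosolic genes, *Rars*, *Wars* and *Cars* among them, had no promoter sequence here, so these medians do not cover the whole set. *Tars*, which was called lower, has the same 8 capitals as *Iars*, which was called higher. Whether any factor binds these sites in NIH/3T3 cells was not measured.

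Of the proteins around the synthetases, those of the complex that carry no enzyme activity are encoded by *Aimp1*, *Aimp2* and *Eef1e1*. Only *Eef1e1* of the 3 was called, with 4397 in KD and 3317 in WT (0.41, SE 0.11, q = 0.0453), and the median log2 ratio of the 3 genes was 0.34. These 3 genes have a mean level of at least 1000, where 23.8% of genes were called higher. Of 7 genes for the delivery of charged tRNA to the ribosome, 3 had transcripts called higher and none lower, with a median of 0.33. All 7 have a mean level of at least 1000 and 4 of at least 10000, where 23.8% and 37.1% of genes were called higher, so 3 of 7 is near the background. They were *Tufm* (0.49, q = 0.0169), the elongation factor that brings tRNA to the mitochondrial ribosome, *Gfm1* (0.37, q = 0.0243), the mitochondrial translocation factor, and *Eef1d* (0.42 and 0.59 for 2 transcripts, q = 0.0421 and 0.0362), a subunit of the exchange factor for the cytosolic one.

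Of 11 relatives of the synthetases and enzymes that edit or convert aminoacyl tRNAs, only *Pstk*, the kinase of seryl tRNA on the route to selenocysteine, was called (0.38, SE 0.12, q = 0.0456). This 1 call of 11 stands beside 14.5% of all protein-coding genes called higher, and 4 of the 11 have a mean level of at least 1000. The median of the 11 genes was 0.091. Of 24 genes for the processing, modification and export of tRNA, 7 had transcripts called higher and 2 lower, with a median of 0.19. With 20 of the 24 at a mean level of at least 1000, these counts are near the background of 23.8% and 12.8%. *Tsen34*, a subunit of the tRNA splicing endonuclease, had 3 transcripts called higher, the largest with 2315 in KD and 605 in WT (1.94, SE 0.13, q = 0.0103). *Tsen15*, a structural subunit of the same enzyme, was called lower, with 914 in KD and 1348 in WT (−0.56, SE 0.11, q = 0.0242). *Ssb*, which encodes the La protein that binds the 3′ end of newly made tRNA, was the other gene called lower (−0.58, SE 0.12, q = 0.0271). *Trmt1* and *Nsun2*, which methylate tRNA, *Pop7*, *Elac2* and *Pus1* were also called higher.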

How the data were processed

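RNA-seq of NIH/3T3 cells comprised 2 KD and 2 WT libraries; groups follow the labels and no covariate was used. The authors used BBDuk 38.22 for adapters, Kallisto 0.44.0 for quantification and Sleuth 0.30.0 for the comparison of groups. The index, its strand setting and the filter on low counts are not given in the sources used here. The deposited tables hold, per transcript, means, variances and effects on the natural log scale of estimated counts divided by size factors plus 0.5, and p-values and q-values from Sleuth (per transcript and combined per gene). These comparison columns were used because the tables summarise the libraries, and the depth of each library is unknown. Effects were converted to log2, and 95% intervals are normal approximations from the deposited SE. The deposited means and effects were turned back into levels, and the residual variance gave the within-group SD (the columns obey 3 times variance minus 2 times residual variance equals the squared effect to within 2.1e-13). KD and WT of 2 libraries each were taken as not overlapping where the effect exceeded any spread that the residual sum of squares allows, and 5 of 61 transcripts could not be decided. Lengths, exons and coordinates came from GENCODE M21 (GRCm38), which matched 58 of the 61 transcripts. Words of 31 bases were compared over all its transcripts.

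The members and lists were chosen with earlier results of these data known. Text was written for every called transcript, for the largest rise and fall and the highest and lowest level per kilobase in each compartment, and for genes whose transcripts differ in direction. Any other member is given by range. A few items are not reported here by name or drawn, but enter the counts and medians. The alternatives used limma 3.58.1 in R 4.3.3, Python 3.11.15, pandas 2.3.3, numpy 2.4.6 and scipy 1.17.1, and the fit was tested on simulated data. p-values cover these transfections only. The variance used in the test can exceed the spread of a transcript's own libraries, through a trend fitted over transcripts. In *Tars*, for example, the SE was 0.077 and the within-group SD 0.012.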

Additional observations from a re-analysis of the deposited data

How the results depend on the processing

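The tables summarise the libraries, so leaving out each replicate in turn was not run. No paired analysis was possible because the tables hold no column of a single library. With 2 libraries a group, small changes of weakly expressed mitochondrial synthetases were not detectable with these SEs.

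Transcripts called higher numbered 17 and those called lower 3. With the Wald q-values of Sleuth these were 20 and 3, with a limma moderated test 12 (10 of them shared) and 2, with transcripts of a mean of at least 100 only 24 and 3, with protein-coding rows only 21 and 3, with effects centred by GC content 17 (14 shared) and 3, and with effects centred on the median transcript, a shift of 0.048, 19 and 4. The share of all tested transcripts called higher moved with these settings, from 7.26% to 10.4%, 5.44%, 20.0%, 10.6%, 8.70% and 8.68% in the same order. The share called lower moved from 5.21% to 7.80%, 4.24%, 14.2%, 7.29%, 6.64% and 9.19%. In 119 comparisons of the 20 called transcripts with these alternatives, 109 kept their call, 10 lost it and 0 changed direction. The calls of the minor *Cars* transcript, *Ears2*, *Iars*, *Nars*, *Qars*, *Sars2*, *Tars* and *Yars* were lost with limma (adjusted p from 0.0501 to 0.0754), and those of *Ears2* and *Sars2* also under GC centring (0.0762 and 0.0935). The *Nars* transcript had no GC value. The cytosolic median of 0.34 lay between 0.29 and 0.39 and the mitochondrial median of 0.10 between 0.053 and 0.14 under the alternatives. The upper end of the latter, without *Lars2*, was chosen after seeing the data. Leaving out *Gars* and *Kars*, which serve both compartments, left the cytosolic median at 0.34 and does not bear on the mitochondrial one.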
